A study of Homo sapiens with 2 samples.

Results

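Wnt pathway genes were examined after siRNA transfection in RKO, a widely used line of human colorectal cancer cells. The set holds 60 genes chosen by symbol, out of 40205 gene symbols in the deposited table, and covers ligands, receptors, the destruction complex of β-catenin, the TCF transcription factors and reported target genes. The rule matches symbols and uses no measured value, but the set was drawn up with earlier results of these data known. The study compared cells given siRNA to hnRNPK, which is a ribonucleoprotein that binds RNA and DNA rich in C, with cells given a control siRNA, both collected on day 2 after transfection. Each group has 1 library of total RNA, so the differences have no replicates behind them, no p-value was computed, and differences between cultures cannot be told apart from differences between siRNAs. The titles and the protocol name siRNA, whereas the genotype label of the hnRNPK siRNA library is worded as a knockout, and the groups are called hnRNPK siRNA and control siRNA after the titles.

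Wnt ligands are lipid-modified secreted proteins that bind Frizzled receptors and the co-receptors LRP5 and LRP6. Without a ligand, a complex of Axin, APC, GSK3 and casein kinase 1 phosphorylates β-catenin and marks it for degradation. With a ligand, Dishevelled proteins recruit Axin to the membrane, β-catenin builds up and acts with TCF and LEF factors in the nucleus. In the intestine the pathway maintains crypt stem cells, and in most colorectal cancers it is switched on by mutation of APC or of β-catenin, but RKO is known as a line in which both genes are intact.

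HNRNPK, the siRNA target, was at 61.5 FPKM in hnRNPK siRNA, against 338.0 FPKM in control siRNA, which left 18.2% of the control level. FPKM is a read number scaled to transcript length and library size. The values could be traced back to whole reads, with library totals of at least 28550823 reads for hnRNPK siRNA and 25729856 reads for control siRNA. From these reads each ratio has an exact Clopper-Pearson 95% interval, given after it, which covers counting error only. Of 11 markers of colorectal epithelium 4 had a mean of at least 1 FPKM, EPCAM, KRT8, KRT18 and CDX2, while CDH1, KRT19, KRT20, VIL1, LGALS4 and MUC2 were listed at 0. EPCAM and KRT18 had 29.1 and 74.8 FPKM in hnRNPK siRNA and 19.0 and 62.6 FPKM in control siRNA, and KRT8 and CDX2 had 5.03 and 4.47 FPKM in hnRNPK siRNA and 6.63 and 5.01 FPKM in control siRNA. Of 9 markers of stroma and endothelium only ACTA2 had a mean of at least 1 FPKM, at 2.79 FPKM in hnRNPK siRNA and 1.35 FPKM in control siRNA, and the part of such cells in the results was not tested. Markers of blood cells summed to 0.0295 FPKM in hnRNPK siRNA and 0 FPKM in control siRNA, and PTPRC was listed at 0 in both. In such bulk samples fewer cells of a type and less RNA per cell cannot be told apart.

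Promoter sequences of 4 genes are printed as examples. They belong to SP5, the receptor gene FZD4 and the Dishevelled genes DVL1 and DVL2, whose ratios differ. SP5 encodes a transcription factor used as a readout of β-catenin activity. Each sequence is shown with a word that it holds, so the marked matches are not evidence about these genes. Each runs from 250 bases before to 50 bases after the annotated start, 5′ to 3′ on the gene's strand, as the RefSeq annotation of GRCh38.p14 gives them, a later build than the one used for the expression table. The strand of SP5, FZD4 and DVL2 was checked against a GENCODE transcript, and the DVL1 sequence matched none, so its start and strand rest on RefSeq alone. Capitals mark matches on either strand to the word CTTTGAT, a TCF and LEF binding word, in SP5, to CCCTCCCC, a word of the CT element that hnRNPK is known to bind, in FZD4, to GGGCGG, the core of the GC box, in DVL1, and to CACGTG, the E-box, in DVL2. GGGCGG and CACGTG were chosen after the sequences had been seen.
SP5, chr2:170715087-170715386, plus strand: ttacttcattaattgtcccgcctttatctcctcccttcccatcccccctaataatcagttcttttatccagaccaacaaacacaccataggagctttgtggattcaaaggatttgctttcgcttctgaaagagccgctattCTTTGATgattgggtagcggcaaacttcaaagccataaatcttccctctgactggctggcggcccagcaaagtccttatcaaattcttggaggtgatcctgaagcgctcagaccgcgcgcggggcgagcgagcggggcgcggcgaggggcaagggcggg
FZD4, chr11:86955346-86955645, minus strand: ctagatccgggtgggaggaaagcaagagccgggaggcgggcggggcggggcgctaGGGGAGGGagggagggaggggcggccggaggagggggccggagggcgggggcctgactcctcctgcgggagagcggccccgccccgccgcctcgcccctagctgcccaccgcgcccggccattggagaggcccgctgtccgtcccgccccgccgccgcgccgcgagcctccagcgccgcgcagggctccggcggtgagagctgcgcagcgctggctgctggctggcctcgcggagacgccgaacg
DVL1, chr1:1349369-1349668, minus strand: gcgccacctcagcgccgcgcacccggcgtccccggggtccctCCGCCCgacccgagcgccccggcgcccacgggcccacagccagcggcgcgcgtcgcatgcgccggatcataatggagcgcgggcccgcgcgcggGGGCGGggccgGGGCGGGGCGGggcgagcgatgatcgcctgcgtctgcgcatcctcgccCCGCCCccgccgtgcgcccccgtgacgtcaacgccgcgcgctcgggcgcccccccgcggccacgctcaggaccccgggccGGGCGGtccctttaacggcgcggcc
DVL2, chr17:7234468-7234767, minus strand: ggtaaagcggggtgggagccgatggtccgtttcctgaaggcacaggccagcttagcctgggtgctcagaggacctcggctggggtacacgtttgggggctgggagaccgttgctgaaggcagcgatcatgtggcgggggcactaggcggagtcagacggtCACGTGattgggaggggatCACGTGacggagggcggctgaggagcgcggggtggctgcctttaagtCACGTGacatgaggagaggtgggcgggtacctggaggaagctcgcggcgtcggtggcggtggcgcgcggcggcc

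A promoter of this length was given for 43 of the 60 genes. The TCF and LEF word was found in 1 of the 43, SP5, against 2.62% of all 35116 promoters. CCCTCCCC was found in 12 of the 43, or 27.9%, against 13.6% of all promoters. The 12 were APC2, CTNNBIP1, FZD4, LRP5, PYGO2, RNF43, ROR1, SOX4, TCF7L1, TCF7L2, TLE1 and TLE3. DVL1, DVL3 and GSK3A had a promoter given but did not hold this word. GGGCGG occurred in 36 of the 43, against 45% of all promoters, and 6 times in DVL1. CACGTG occurred in 4 of the 43, APC, APC2, DVL2 and TLE3, against 7.26% of all promoters, and 3 times in DVL2. The 35116 promoters were not matched to the set for GC content or type of gene, and the part of either in these shares was not tested. A match is a description of these letters and not a binding site.

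Of the 60 genes, 9 were listed at 0 in both libraries, 16 were above 0 with a mean of under 1 FPKM over both libraries, and 35 had a mean of at least 1 FPKM and are called measured. A count of 0 still allows 3 reads, which on a transcript of 1000 bases is 0.105 FPKM in hnRNPK siRNA and 0.117 FPKM in control siRNA. The 9 genes at 0 were the ligands WNT5A, WNT6 and WNT10B, the receptor ROR2, the R-spondin receptors LGR5 and LGR6, the repressor TCF7L1, the inhibitor DKK1 and the target TNFRSF19. The gene for β-catenin, CTNNB1, had the highest level of the set in both libraries.

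**Figure D1:**
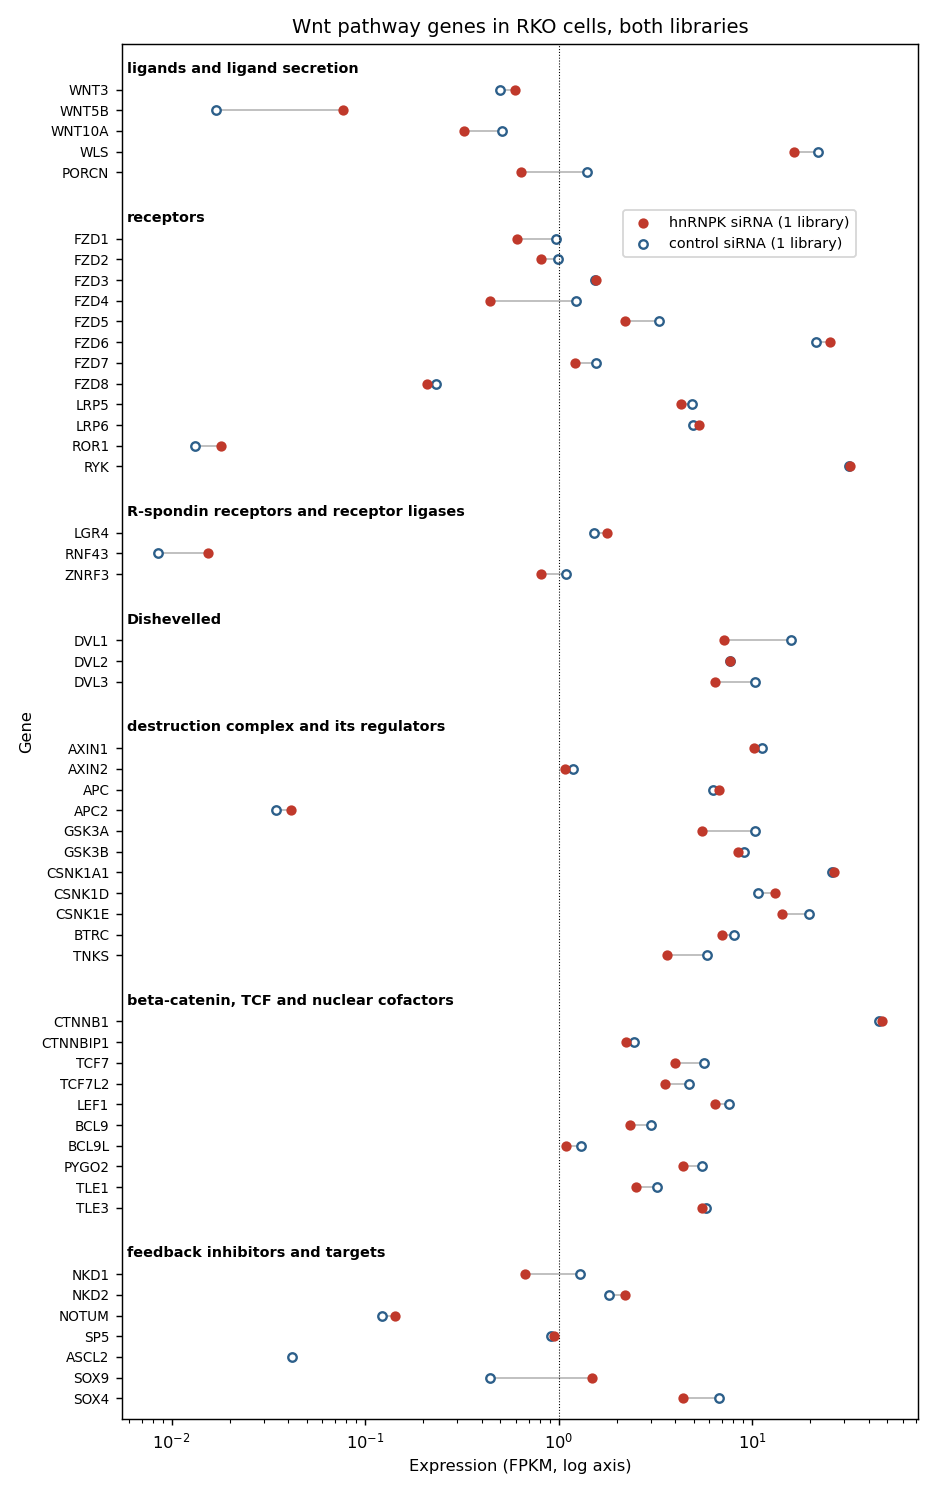
FPKM on a log axis for the 51 genes above 0 in at least 1 library, by role, with hnRNPK siRNA as filled red points and control siRNA as open blue points, 1 library each; the dotted line marks 1 FPKM. ASCL2, listed at 0 in hnRNPK siRNA, has its control point only, and most pairs of points lie close together, with wider gaps at DVL1, PORCN, FZD4, SOX9 and NKD1 and, from 5 reads and 1 read, at WNT5B.

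The median ratio of the Wnt genes was close to that of all genes. On a log2 scale of hnRNPK siRNA over control siRNA with 1 FPKM added to both values, on which the change of low genes is understated, the median of the 35 measured genes was −0.16, beside −0.15 for all 11454 measured genes of the table, and 17 of the 35 lay above that median of all genes. None of the 35 was at least 2-fold higher, against a background of 0.777% of all measured genes. DVL1 alone was at least 2-fold lower, which is 1 of 35, or 2.86%, against 3.55% of all measured genes. At 1.5-fold, 3 of the 35, or 8.57%, were lower, DVL1, GSK3A and DVL3, against 14.7% of all, and none was higher, against 3.67% of all. The counting interval of the plain FPKM ratio lay below 1 for 19 of the 35, or 54.3%, against 48.4% of all measured genes, and above 1 for 3, or 8.57%, CSNK1D, FZD6 and APC, against 20.8% of all. Against the median FPKM ratio of all genes, a comparison chosen after seeing the data, the interval lay below for 10 of the 35 measured Wnt genes, or 28.6%, against 34% of all genes, and above for 11, or 31.4%, against 33% of all genes. Because the median of all genes is itself below 0, the direction of small differences depends on the scaling. Under the deposited scaling, centring on that median, TMM factors and equal totals, 18 of the 35 were lower each time, 4 were higher each time (FZD6, LGR4, CSNK1D and NKD2) and the direction of 13 turned with the scaling. This count was not made over all genes, so it is not a result about the set. Of all measured genes, 64.8% were below 0 as deposited and 50% after centring. The whole table held 89 genes past 2-fold on the higher side and 407 on the lower side as deposited, and 142 and 241 after centring.

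**Figure D2:**
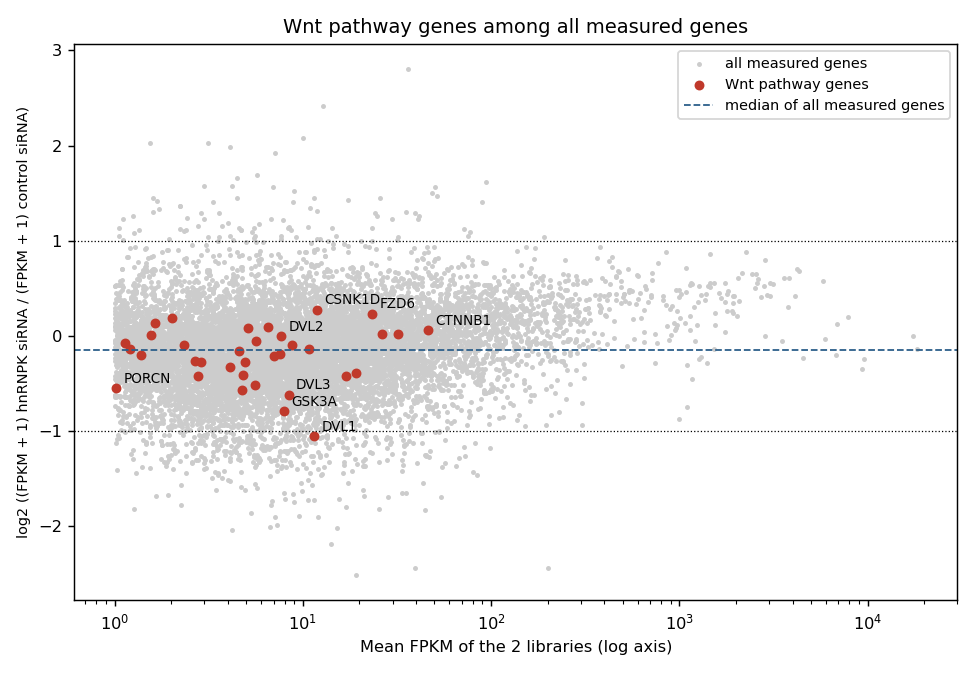
Each point is 1 gene with a mean of at least 1 FPKM, at its mean FPKM (log axis) and its log2 ratio of FPKM + 1, hnRNPK siRNA over control siRNA; the 35 Wnt genes are red, the other genes grey. Dotted lines mark 2-fold and the dashed line the median of all genes at −0.15; the Wnt genes spread on both sides of it and DVL1 alone is past a 2-fold line.

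The ligands were scarce. WNT3, a ligand of the β-catenin branch, was at 0.595 FPKM in hnRNPK siRNA and 0.498 FPKM in control siRNA, from 57 and 43 reads. WNT10A was at 0.324 FPKM in hnRNPK siRNA and 0.507 FPKM in control siRNA, from 22 and 31 reads, and its ratio of 0.640 had an interval of 0.353 to 1.14. WNT5B rested on 5 reads in hnRNPK siRNA and 1 read in control siRNA. None of these differences exceeds its counting interval. The proteins that process and release ligands were the measured members of this group. WLS, the carrier that takes Wnt proteins to the cell surface, was at 16.4 FPKM in hnRNPK siRNA, against 21.8 FPKM in control siRNA, a ratio of 0.751 (0.676 to 0.834). PORCN, the acyltransferase that adds the lipid to Wnt proteins, was at 0.640 FPKM in hnRNPK siRNA and 1.40 FPKM in control siRNA, 2.19-fold lower (1.49 to 3.27), though not past 2-fold once 1 FPKM was added. Both were lower under each of the 4 scalings.

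Among receptors, RYK, a catalytically inactive kinase that binds Wnt, and FZD6 were the most abundant. RYK was at 32.2 FPKM in hnRNPK siRNA and 31.8 FPKM in control siRNA, with a ratio of 1.01 (0.959 to 1.07). FZD6 was at 25.3 FPKM in hnRNPK siRNA and 21.4 FPKM in control siRNA, a ratio of 1.18 (1.12 to 1.25), and it was higher under each scaling. FZD6 made up 78.2% of the summed FPKM of the 8 Frizzled genes in hnRNPK siRNA and 68.5% in control siRNA. The sum itself was 32.4 FPKM in hnRNPK siRNA and 31.2 FPKM in control siRNA. The other Frizzled genes mostly had lower values in hnRNPK siRNA. FZD5, a receptor of Wnt signals, was at 2.21 FPKM in hnRNPK siRNA, against 3.32 FPKM in control siRNA, a ratio of 0.668 (0.587 to 0.760). FZD7 was at 1.22 FPKM in hnRNPK siRNA and 1.55 FPKM in control siRNA, a ratio of 0.784 (0.617 to 0.995). FZD3 was at 1.56 FPKM in hnRNPK siRNA and 1.54 FPKM in control siRNA. Relative to FZD6 in the same library, a comparison that no scaling can move, FZD5 was at 0.0875 in hnRNPK siRNA and 0.155 in control siRNA.

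FZD4, whose promoter is shown above and which has a mean of under 1 FPKM, had the lowest ratio of the set among genes with at least 10 reads in each library. It was at 0.441 FPKM in hnRNPK siRNA and 1.22 FPKM in control siRNA, from 93 and 233 reads, 2.78-fold lower (2.18 to 3.57). FZD1 was at 0.612 FPKM in hnRNPK siRNA and 0.965 FPKM in control siRNA, a ratio of 0.634 (0.407 to 0.978). FZD2 was at 0.807 FPKM in hnRNPK siRNA and 0.997 FPKM in control siRNA and FZD8 at 0.209 FPKM in hnRNPK siRNA and 0.232 FPKM in control siRNA, with intervals that hold 1. The tyrosine kinase receptor ROR1 rested on 3 reads in hnRNPK siRNA and 2 in control siRNA.

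The co-receptors LRP5 and LRP6 summed to 9.62 FPKM in hnRNPK siRNA and 9.88 FPKM in control siRNA. LRP5 was at 4.30 FPKM in hnRNPK siRNA and 4.92 FPKM in control siRNA, and LRP6 at 5.32 FPKM in hnRNPK siRNA and 4.96 FPKM in control siRNA. LRP5 relative to LRP6 was thus 0.808 in hnRNPK siRNA and 0.990 in control siRNA, a quotient of 0.816 (0.714 to 0.932). Of the R-spondin receptors and the ubiquitin ligases that clear Frizzled from the surface, LGR4 alone was measured, at 1.77 FPKM in hnRNPK siRNA and 1.52 FPKM in control siRNA, a ratio of 1.16 (0.967 to 1.40). The ligase ZNRF3 was at 0.808 FPKM in hnRNPK siRNA and 1.09 FPKM in control siRNA with an interval of 0.339 to 1.60, which may be too wide because its reads may be understated. Its sister ligase RNF43 rested on 2 reads in hnRNPK siRNA and 1 read in control siRNA.

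The Dishevelled genes, which encode the relay between receptors and the destruction complex, differed from each other. DVL1 was at 7.12 FPKM in hnRNPK siRNA, against 15.9 FPKM in control siRNA, from 611 and 1231 reads, which is 2.24-fold lower (2.03 to 2.47). DVL3 was at 6.41 FPKM in hnRNPK siRNA, against 10.4 FPKM in control siRNA, 1.62-fold lower (1.49 to 1.77). DVL2 was at 7.66 FPKM in hnRNPK siRNA and 7.69 FPKM in control siRNA, a ratio of 0.996 (0.890 to 1.11), and its direction turned with the scaling. The summed level of the 3 genes was 21.2 FPKM in hnRNPK siRNA and 34.0 FPKM in control siRNA. DVL1 was thus the most abundant Dishevelled transcript in control siRNA, with 46.8% of the sum, and had 33.6% in hnRNPK siRNA, where the 3 genes were at similar levels. Relative to DVL2 in the same library, DVL1 was at 0.931 in hnRNPK siRNA and 2.07 in control siRNA, a quotient of 0.449 (0.387 to 0.522), and for DVL3 the quotient was 0.619 (0.538 to 0.713). DVL1 was no longer past 2-fold after centring (−0.91 on the log2 scale, against −1.06 as deposited) or with TMM factors.

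**Figure D3:**
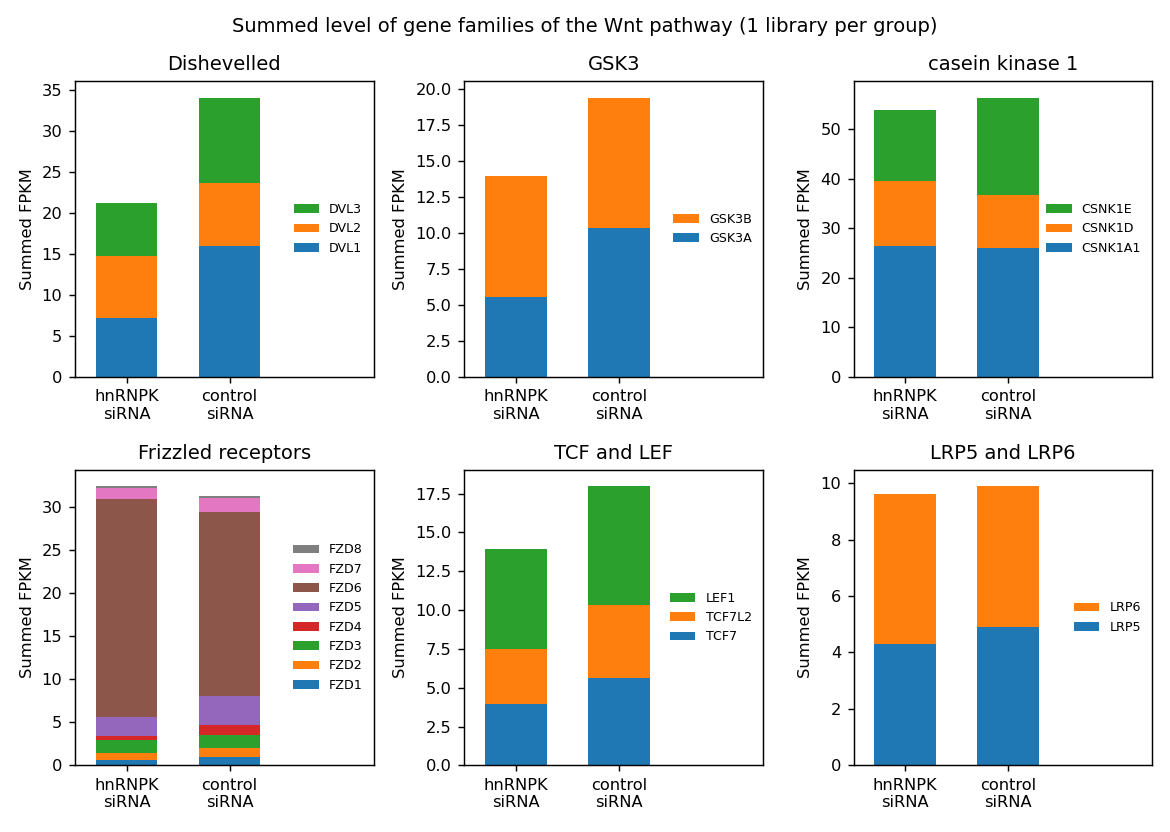
Summed FPKM of 6 gene families in hnRNPK siRNA (left bar) and control siRNA (right bar), 1 library each, stacked by gene; bars start at 0. The Dishevelled and GSK3 bars are lower in hnRNPK siRNA through DVL1, DVL3 and GSK3A, while the Frizzled, casein kinase 1 and LRP5 and LRP6 sums are close. The TCF and LEF bar is lower as well, at 13.9 FPKM in hnRNPK siRNA and 18.0 FPKM in control siRNA.

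In the destruction complex the scaffolds had ratios near 1 and some kinases did not. APC was at 6.73 FPKM in hnRNPK siRNA and 6.28 FPKM in control siRNA, a ratio of 1.07 (1.01 to 1.14), and with equal totals its log2 ratio was −0.0088. AXIN1 was at 10.2 FPKM in hnRNPK siRNA and 11.3 FPKM in control siRNA, and AXIN2, a scaffold that is also a classical Wnt target, was at 1.08 FPKM in hnRNPK siRNA and 1.19 FPKM in control siRNA, with a ratio of 0.908 (0.711 to 1.16). APC2 rested on 12 reads in hnRNPK siRNA and 9 in control siRNA. The directions of AXIN1, AXIN2 and APC all turned with the scaling.

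GSK3A and GSK3B encode the kinase that marks β-catenin for degradation. GSK3A was at 5.53 FPKM in hnRNPK siRNA, against 10.3 FPKM in control siRNA, 1.87-fold lower (1.63 to 2.14). GSK3B was at 8.41 FPKM in hnRNPK siRNA and 9.04 FPKM in control siRNA, a ratio of 0.931 (0.845 to 1.03). GSK3A relative to GSK3B was 0.657 in hnRNPK siRNA and 1.14 in control siRNA, so the order of the pair differed between the libraries, with a quotient of 0.575 (0.487 to 0.680).

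The casein kinase 1 genes differed from each other as well. CSNK1A1, the kinase that primes β-catenin, was at 26.4 FPKM in hnRNPK siRNA and 26.0 FPKM in control siRNA, with a ratio of 1.02 (0.985 to 1.05). CSNK1D was at 13.2 FPKM in hnRNPK siRNA, against 10.7 FPKM in control siRNA, a ratio of 1.23 (1.14 to 1.33). CSNK1E was at 14.4 FPKM in hnRNPK siRNA, against 19.6 FPKM in control siRNA, a ratio of 0.731 (0.677 to 0.790). CSNK1D and CSNK1E, which encode closely related kinases, kept opposite directions under each scaling, and CSNK1E relative to CSNK1D had a quotient of 0.595 (0.533 to 0.664). TNKS, tankyrase, which marks Axin for degradation, was at 3.61 FPKM in hnRNPK siRNA, against 5.86 FPKM in control siRNA, a ratio of 0.616 (0.569 to 0.667). BTRC, the ubiquitin ligase subunit that recognises phosphorylated β-catenin, was at 6.98 FPKM in hnRNPK siRNA and 8.10 FPKM in control siRNA, a ratio of 0.863 (0.797 to 0.933).

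CTNNB1 itself was at 47.1 FPKM in hnRNPK siRNA and 45.2 FPKM in control siRNA, from 5063 and 4386 reads. These are RNA levels and say nothing of β-catenin protein, which the destruction complex controls. Of the 10 measured genes of the nuclear group, 9 had a ratio below 1 on the FPKM + 1 scale, against 64.8% of all measured genes, and the median was −0.24. After centring, 6 of the 10 were below 0, against 50% of all measured genes. The TCF and LEF genes, which bind DNA together with β-catenin, summed to 13.9 FPKM in hnRNPK siRNA and 18.0 FPKM in control siRNA. LEF1 was at 6.41 FPKM in hnRNPK siRNA and 7.62 FPKM in control siRNA, a ratio of 0.841 (0.755 to 0.937). TCF7 was at 3.97 FPKM in hnRNPK siRNA and 5.63 FPKM in control siRNA, a ratio of 0.706 (0.533 to 0.932), and TCF7L2 was at 3.53 FPKM in hnRNPK siRNA and 4.71 FPKM in control siRNA, a ratio of 0.750 (0.658 to 0.853). These 3 genes were lower under each scaling, and their shares of the sum were similar in both libraries, with LEF1 at 46.1% in hnRNPK siRNA and 42.4% in control siRNA.

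The cofactors had small differences. BCL9 and PYGO2, which link β-catenin to chromatin, were at 2.35 and 4.37 FPKM in hnRNPK siRNA and at 3.02 and 5.52 FPKM in control siRNA. BCL9L, the relative of BCL9, was at 1.10 FPKM in hnRNPK siRNA and 1.31 FPKM in control siRNA. The co-repressor TLE1 was at 2.51 FPKM in hnRNPK siRNA and 3.23 FPKM in control siRNA, with a ratio of 0.775 (0.648 to 0.927), and its relative TLE3 was at 5.50 FPKM in hnRNPK siRNA and 5.76 FPKM in control siRNA. CTNNBIP1, which blocks the binding of TCF to β-catenin, was at 2.22 FPKM in hnRNPK siRNA and 2.44 FPKM in control siRNA. The intervals of BCL9, TLE3 and CTNNBIP1 hold 1, but that of BCL9 may be too wide, because its reads may be understated.

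**Figure D4:**
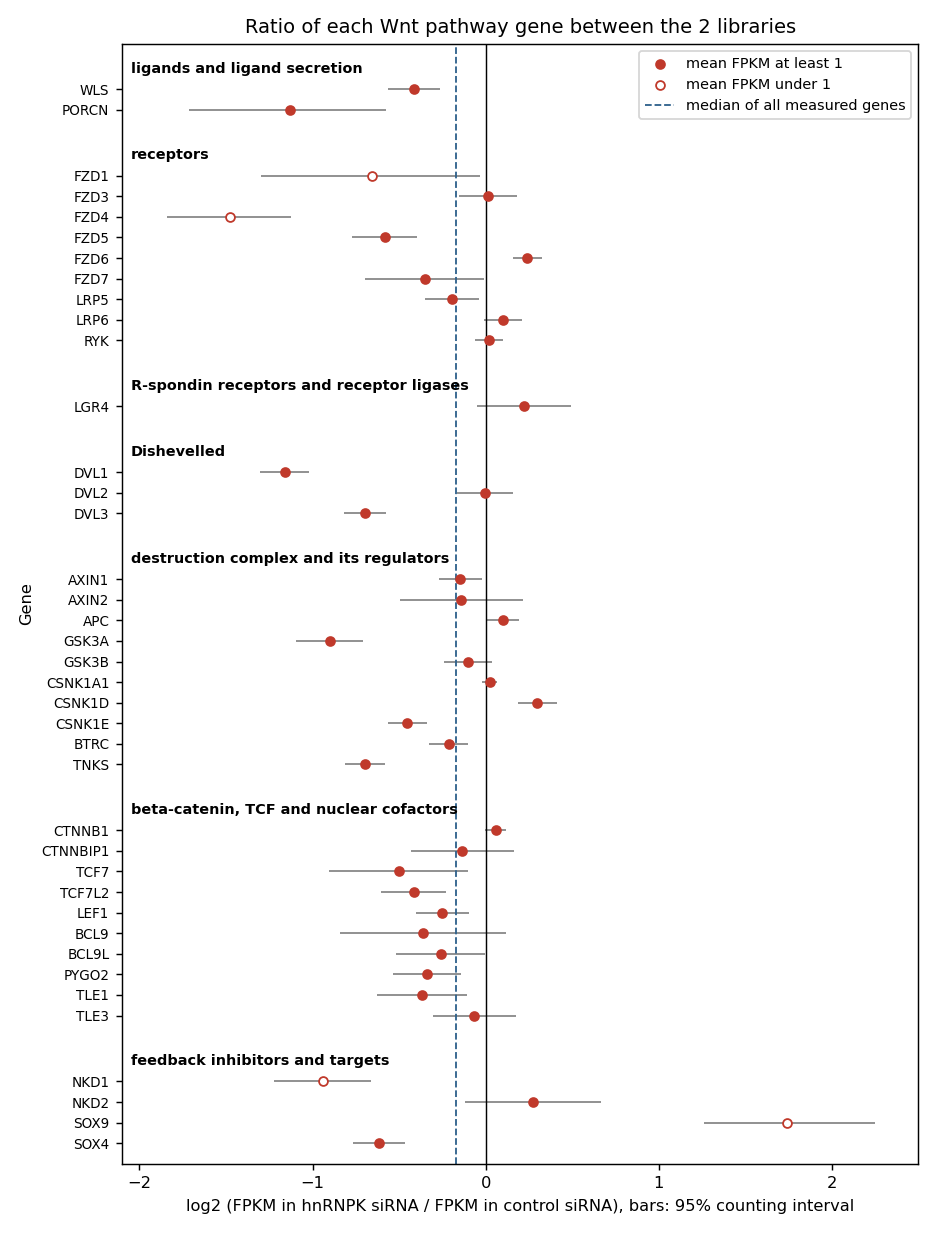
Log2 ratio of FPKM, hnRNPK siRNA over control siRNA, for the 35 measured genes (filled) and 4 genes with a mean of under 1 FPKM whose interval leaves out 1 (open), by role; bars are exact 95% counting intervals. The solid line marks no difference and the dashed line the median FPKM ratio of all measured genes, 0.888. Whole intervals lie left of both lines for WLS, PORCN, FZD5, FZD4, DVL1, DVL3, GSK3A, CSNK1E, TNKS, TCF7L2, NKD1 and SOX4. Points of some other genes do as well, and SOX9 lies far to the right.

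Among target and feedback genes SOX4 and NKD2 were measured, and SOX9 and NKD1 are given because their interval leaves out 1. SOX9, a transcription factor of crypt progenitors, was at 1.49 FPKM in hnRNPK siRNA, against 0.444 FPKM in control siRNA, from 167 and 45 reads, a ratio of 3.34 (2.39 to 4.76), the highest of the genes with at least 10 reads in each library. It was above 1 FPKM in hnRNPK siRNA only. Its mean of under 1 FPKM keeps it out of the counts of measured genes, and with 1 FPKM added it was not past 2-fold. SOX4, of the same family, was at 4.40 FPKM in hnRNPK siRNA, against 6.75 FPKM in control siRNA, 1.53-fold lower (1.38 to 1.70). SOX9 relative to SOX4 was 0.338 in hnRNPK siRNA and 0.0659 in control siRNA, a quotient of 5.13 (3.60 to 7.41).

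NKD1 and NKD2 encode inhibitors that bind Dishevelled and are induced by Wnt signals. NKD1 was at 0.671 FPKM in hnRNPK siRNA, against 1.29 FPKM in control siRNA, 1.92-fold lower (1.58 to 2.34), while NKD2 was at 2.20 FPKM in hnRNPK siRNA and 1.82 FPKM in control siRNA, a ratio of 1.21 (0.921 to 1.59). SP5, which holds the TCF and LEF word in the promoter printed above, was at 0.949 FPKM in hnRNPK siRNA and 0.913 FPKM in control siRNA, from 30 and 26 reads, a ratio of 1.04 (0.594 to 1.83). NOTUM, a secreted enzyme that removes the lipid of Wnt proteins, rested on 9 reads in hnRNPK siRNA and 7 in control siRNA. ASCL2, a transcription factor of intestinal stem cells, was at 0 in hnRNPK siRNA and rested on 2 reads in control siRNA. Over the 15 genes of the set that are reported Wnt targets in any role, AXIN2, LEF1, TCF7 and others, 5 were measured. With 1 FPKM added, none of these was past 2-fold, against 3.55% of all measured genes lower and 0.777% higher. With 5 genes, a count of 0 cannot be told apart from these shares. SOX9 and NKD1, which have a mean of under 1 FPKM, are not among the 5.

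Wider lists of the pathway, chosen with earlier results of these data known, had a similar median. Their share of lower genes was larger, which describes the genes chosen and is not a result about the pathway. Of 133 further genes in 6 lists, 67 were measured, with a median of −0.17 on the log2 scale. With 1 FPKM added, 5 of the 67, or 7.46%, were at least 2-fold lower, against 3.55% of all measured genes, and 0 were at least 2-fold higher, against 0.777%. At 1.5-fold, 15 of the 67, or 22.4%, were lower, against 14.7% of all. On plain FPKM 9 of the 67, or 13.4%, were at least 2-fold lower, against 7.17% of all, the further ones being KREMEN1, PPP2R5B, HIPK2 and SLC12A2. None of 17 other Wnt and R-spondin ligands was measured. Of 24 measured partners of the destruction complex, 1 was past 2-fold, PPP2R5A, a regulatory subunit of the phosphatase PP2A, at 5.03 FPKM in hnRNPK siRNA, against 16.3 FPKM in control siRNA, 3.24-fold lower (2.91 to 3.61). Of 19 measured nuclear cofactors, 2 were. TLE5, listed under its older symbol AES, is a short relative of the TLE co-repressors and was at 10.6 FPKM in hnRNPK siRNA, against 40.0 FPKM in control siRNA, 3.77-fold lower (3.42 to 4.16). RUVBL1, an ATPase of chromatin complexes, was at 34.6 FPKM in hnRNPK siRNA, against 70.8 FPKM in control siRNA, 2.05-fold lower (1.94 to 2.16), but on the log2 scale it was at −0.87 after centring and −0.84 with TMM factors, short of 2-fold. Among 14 other reported targets the 2 past 2-fold were CCND1, at 16.4 FPKM in hnRNPK siRNA and 53.9 FPKM in control siRNA, and the receptor gene EPHB2, at 2.09 FPKM in hnRNPK siRNA and 6.27 FPKM in control siRNA. The share of all measured genes beside each of these list counts is 3.55%. Of the 14, 11 were below 0 and 3 above 0 on the log2 scale, against 64.8% of all measured genes below 0. The counting interval lay above 1 for 2 of the 14. The 7 measured genes among other receptors and planar polarity genes and the 3 measured antagonist genes had none past 2-fold with 1 FPKM added. On plain FPKM KREMEN1, which encodes a receptor for DKK inhibitors, was at 0.987 FPKM in hnRNPK siRNA and 2.32 FPKM in control siRNA, 2.35-fold lower (1.96 to 2.84).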

How the data were processed

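Gene expression was measured by RNA sequencing in 2 libraries of RKO cells, 1 per group. The authors deposited FPKM values, 1 row per gene symbol. Per the submitters' processing notes, the tool named is Bowtie 0.12.2 and the genome build hg19. Which annotation and counting method made the values, and whether strand was used, is not given in the sources used here, so reads of overlapping genes such as LEF1 and its antisense RNA, or of close copies, may be mixed. The match of the hnRNPK column rests on a shortened name (SiK) and is less direct than that of the control column.

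Whole reads were worked out from the ratios of the FPKM values and from products of reads, length and total, for 99.99% of 19069 genes above 0, at a relative tolerance of 5e-14 for ratios and 1e-05 bases for lengths. The smallest numbers that fit were used, so for some genes, such as ZNRF3, BCL9 and TCF7, whose recovered lengths are short, reads may be understated and intervals too wide. Measured genes had a median of 591 reads in hnRNPK siRNA and 632 in control siRNA. Sequenced reads can be copies of 1 molecule, and intervals cover counting error only. Quotients of 2 genes have conditional exact intervals. The recovery was tested on simulated data.

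The members and lists were chosen with earlier results of these data known. Named are HNRNPK, the members with a mean of at least 1 FPKM, members below it with at least 0.5 FPKM in either library and an interval without 1, and further pathway genes past 2-fold. Other members were named with their reads after their values had been seen. A pseudocount of 1 FPKM was used. Alternatives were pseudocounts of 0.1 and 5 FPKM, centring, TMM factors, equal totals without small RNAs, other filters, folds of 1.5 and 3, and a counting interval without 1. Promoters were taken from RefSeq, and GC content from GENCODE 29 transcripts. Analyses used Python 3.11.15, numpy 2.4.6, pandas 2.3.3 and scipy 1.17.1.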

Additional observations from a re-analysis of the deposited data

How the results depend on the processing

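No paired analysis was possible because each group has 1 library, and no library could be left out. Of the 60 genes, DVL1 alone was at least 2-fold lower at the main settings, with no filter, at a mean of at least 5 FPKM, without small RNAs, with equal totals and when the interval had to leave out 1. None of the 60 is a small RNA, and a stricter filter or the interval rule can only remove genes, so these settings could not add any. All of them keep the 1 FPKM added. On plain FPKM PORCN was 2.19-fold lower and FZD4, with a mean of under 1 FPKM, 2.78-fold lower. The count of 1 became 2 when 0.1 FPKM was added (PORCN joined), 3 at 1.5-fold, and 0 when 5 FPKM was added, under centring, under TMM and at 3-fold. With 0.1 FPKM added FZD4 (−1.29) and SOX9 (1.54) were past 2-fold too, lower and higher. Their mean of under 1 FPKM kept them out of the counts. The median of the measured Wnt genes, −0.16, was −0.21 when 0.1 FPKM was added, −0.0929 when 5 FPKM was added, −0.0131 under centring, −0.0315 under TMM, −0.25 for equal totals, −0.13 with no filter and −0.0931 at a mean of at least 5 FPKM. The median of all genes, −0.15, was −0.17, −0.0910, 0, 0.0053, −0.24, −0.05 and −0.11 in that order, and −0.15 without small RNAs. The HNRNPK ratio of −2.44 was −2.37 when 5 FPKM was added, −2.29 under centring, −2.26 under TMM and −2.55 for equal totals. Over all genes, the 89 higher and 407 lower were 162 and 754 when 0.1 FPKM was added, 24 and 85 for 5 FPKM, 142 and 241 under centring, 150 and 260 under TMM, 50 and 258 at a mean of at least 5 FPKM, 420 and 1682 at 1.5-fold, and 10 and 39 at 3-fold, and 47 were higher without small RNAs. For 44 named genes, 59 of 220 values under another pseudocount or scaling moved by more than the counting interval. The 13 measured Wnt genes whose direction turned with the scaling were not past 2-fold under any of them. The cause of these shifts was not tested.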

Other observations

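Across the 35 measured Wnt genes, GC content of the longest protein-coding transcript and the log2 ratio had a Spearman's rho of −0.29 and a Pearson's r of −0.33, and across 9606 of all measured genes rho was −0.04 and r −0.06. Genes of low GC content in the set included FZD3 at 34.9%, FZD6 at 38.4% and APC at 39.6%. Genes of high GC content included DVL1 at 67.2% and NKD2 at 67.5%, whose log2 ratios were on opposite sides of 0. Of 25 measured Wnt genes at 45% GC or more, 23 had a log2 ratio below 0, with a median of −0.26. Of 10 under 45% GC, 2 were below 0, with a median of 0.04. Of all measured genes 64.8% were below 0, but these were not split by GC content. The bound of 45% was a choice, and BTRC at 45.3% and TCF7L2 at 45.8%, both below 0, lie just above it. These are descriptions across genes that share 2 libraries, and the part of base composition in the ratios was not tested.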
